A study of Mus musculus with 89 samples.

Results

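Lung RNA of mice given copper oxide (CuO) nanomaterials was examined for 10 genes of secreted antimicrobial proteins of the airway lining: Reg3g, Dmbt1, Ltf, Bpifa1, Bpifb1, Pigr, Lyz1, Lyz2, Slpi and Wfdc2. The genes were chosen by name, with earlier results of these samples already known, and they were 10 of the 22851 genes that had a value in every sample. Their 12 array probes were found by the RefSeq accession that each probe carries. Pigr and Slpi had 2 probes each and the other 8 genes had 1. Since the choice was made with results in view, the counts, fold changes and calls below are a description of these genes and no independent evidence for their direction.

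All mice were female BALB/c, 6 to 8 weeks old, and all were sensitized with ovalbumin (OVA) in alum, the PBS-challenged controls included. Materials were given into the airways by oropharyngeal aspiration on 4 consecutive days, and lungs were taken 24 h after the last one. Core CuO, carboxylated CuO COOH, methylaminated CuO NH3 or PEGylated CuO PEG was given at 2.5, 10 or 40 µg/day, in mice challenged with PBS or with OVA, which gave 24 exposed groups beside PBS controls and OVA controls. Doses were equal in mass of material. By the paper's measurements all 3 coated materials hold less copper per mass than core CuO, CuO PEG the least. Each of the 89 samples was a pool of 2 RNA samples. There were 7 PBS controls and 8 OVA controls, CuO NH3 10 and CuO PEG 10 had 4 samples each, and every other group had 3. PBS-challenged groups are named by material and dose alone, and OVA-challenged ones carry "+ OVA".

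The airway lining is kept clear of microbes by proteins that its club, goblet and gland cells release into the mucus, some at all times and others after signals from cytokines. Reg3g is a lectin that kills Gram-positive bacteria. Dmbt1 is a large scavenger protein that clumps bacteria and binds surfactant proteins. Ltf, lactoferrin, withholds iron from bacteria and is also stored in the granules of neutrophils. Bpifa1 (SPLUNC1) and Bpifb1 (LPLUNC1) are secreted lipid-binding proteins of the upper and conducting airways. Pigr carries IgA through the epithelium into the airway. Lyz1 and Lyz2 are the mouse lysozymes, which cut bacterial cell walls, and Lyz2 is abundant in macrophages and alveolar type 2 cells. Slpi inhibits neutrophil elastase, and Wfdc2 (HE4) is a related small protein of club and other secretory cells.

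The upstream sequences of 5 members are shown because Reg3g had the largest fold change of the members and the others are pairs of neighbours. Bpifa1 and Bpifb1 lie 41.6 kb apart on chromosome 2, and Lyz2 and Lyz1 lie 5.52 kb apart on chromosome 10. All are RefSeq sequences of build GRCm38.p6, 5′ to 3′ on the strand of the gene, and end at the base before the start of transcription. For Reg3g (chr6:78468875-78469124, minus strand), Bpifb1 (chr2:154190568-154190817, plus strand) and Bpifa1 (chr2:154142630-154142879, plus strand), 250 bases are given. Capitals mark matches to TATAAA on either strand.
Reg3g: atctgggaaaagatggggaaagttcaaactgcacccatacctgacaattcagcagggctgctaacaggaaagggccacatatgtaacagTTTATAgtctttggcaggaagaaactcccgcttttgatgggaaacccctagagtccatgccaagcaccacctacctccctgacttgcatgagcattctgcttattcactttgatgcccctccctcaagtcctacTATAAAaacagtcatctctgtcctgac
Bpifb1: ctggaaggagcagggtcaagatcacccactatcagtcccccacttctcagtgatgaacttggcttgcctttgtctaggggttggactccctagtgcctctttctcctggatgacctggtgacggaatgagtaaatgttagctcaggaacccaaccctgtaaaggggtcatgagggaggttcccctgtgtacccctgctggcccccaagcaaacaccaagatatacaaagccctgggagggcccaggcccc
Bpifa1: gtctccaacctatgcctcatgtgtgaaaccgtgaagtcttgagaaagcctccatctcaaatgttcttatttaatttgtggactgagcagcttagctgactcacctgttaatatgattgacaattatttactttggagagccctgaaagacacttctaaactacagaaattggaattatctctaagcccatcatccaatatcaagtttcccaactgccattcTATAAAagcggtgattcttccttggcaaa
Counting back from the start of transcription, the nearest match reached base 22 in Reg3g and base 24 in Bpifa1, and Bpifb1 had none in this window. Of 32851 mouse promoters of the same length, 12.4% held TATAAA. The STAT motif TTCNNNGAA, held by 7.02% of promoters on either strand, was absent from the windows of the 9 members for which the table has a promoter. For Lyz1 (chr10:117292869-117292993) and Lyz2 (chr10:117282273-117282397), both on the minus strand, the 125 bases before the start are given, with capitals where the 2 genes differ when they are set base against base without gaps.
Lyz1: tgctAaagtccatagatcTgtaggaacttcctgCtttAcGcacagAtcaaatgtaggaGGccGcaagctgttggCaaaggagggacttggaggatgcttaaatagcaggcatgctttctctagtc
Lyz2: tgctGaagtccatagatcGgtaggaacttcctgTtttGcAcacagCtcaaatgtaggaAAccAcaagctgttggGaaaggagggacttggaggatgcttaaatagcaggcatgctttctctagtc
They differed at 10 of 125 positions (92% identical), and the 50 bases next to the start were the same. Over 250 bases without gaps 98 positions differed (60.8% identical), 88 of them in the 125 bases farther from the start. The coding sequences of the 2 lysozymes are also much alike, so each probe may take up RNA of both genes.

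Values are log2 median spot intensities, quantile normalized over the 89 samples. Effects of dye, of slide and of position on the slide were taken out of the sample values given, which are not compared between genes. Overlap with controls was judged on these adjusted values, with the groups kept in the adjustment. How many of all genes lacked overlap was not counted, so lack of overlap only describes the members. It can depend on the adjustment: without it, the OVA controls of Pigr and Slpi overlapped the PBS controls. Fold changes against controls are from a linear model with dye and array as terms, with the standard error (SE). Because both samples of an array then share a term, a fold change can differ from the difference of the group means, and for the member values given, the estimate with slide and position in place of the array is added where the 2 estimates differ by over 1.5-fold or in the call. With the array as a term, a sample whose array partner is left out no longer adds to the comparison. A gene was called at a Benjamini-Hochberg adjusted p below 0.05 over all 22851 genes and an absolute log2 fold change above 0.58, and "rose" and "fell" are used of called genes only. The median intensity of a sample was 62 to 203, or 1.38 to 4.34 times the local background. All member probes were well above background in 89 of 89 samples except the dimmer Pigr probe (88) and Dmbt1 (72). Dmbt1 was well above background in 3 of 7 PBS controls, 4 of 8 OVA controls, 1 of 4 CuO PEG 10 samples and 0 of 3 CuO PEG 2.5 samples, so its changes start near the lower end of the scale. Markers of lung tissue (Sftpc, Scgb1a1, Ager, Pecam1 and Epcam) were well above background in all 89 samples. Labels do not say that samples of a group came from separate cages or runs, so errors measure the spread between these pools.

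Reg3g, Bpifb1 and, by one of its probes, Pigr were higher in OVA controls than in PBS controls. In this comparison 3 of the 10 members rose and 0 fell, where 5.22% of all genes were called. Reg3g had a lowest, median and highest value of 7.82, 8.80 and 10.42 in the PBS controls. In the OVA controls they were 11.81, 12.31 and 13.78. No OVA control was as low as any PBS control. Its log2 fold change was 3.23 ± 0.80 (SE), or 9.41-fold. Bpifb1 lay between 10.12 and 11.28 (median 11.11) in the PBS controls and between 13.16 and 14.07 (median 13.53) in the OVA controls. Here too the groups did not overlap, with a log2 fold change of 2.17 ± 0.45, or 4.50-fold. Bpifb1 remained called when any 1 control was left out. Reg3g lost its call without PBS replicate 2 or OVA replicate 3, which share an array, with 3.71 in both cases.

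Bpifa1, the neighbour of Bpifb1, was not called (-0.99 ± 0.70, or -0.35 ± 0.47 with slide and position). Its values in the PBS controls spread from 10.07 to 12.79, wider than the difference between the groups. Ltf was at 0.89 ± 0.42, with 9.24 to 11.05 in the PBS controls and a median of 11.30 and a highest value of 12.21 in the OVA controls, of which 1 lay below the highest PBS control. With slide and position as terms Ltf was called, at 1.11 ± 0.31. The other members that were not called had log2 fold changes of 0.60 ± 0.32 (Dmbt1), 0.33 ± 0.18 (Slpi), -0.61 ± 0.26 (Lyz1), -0.52 ± 0.21 (Lyz2) and -0.25 ± 0.15 (Wfdc2). Lyz1 was more spread in the OVA controls, from 14.30 to 15.48, than in the PBS controls, from 15.23 to 15.57.

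**Figure D1:**
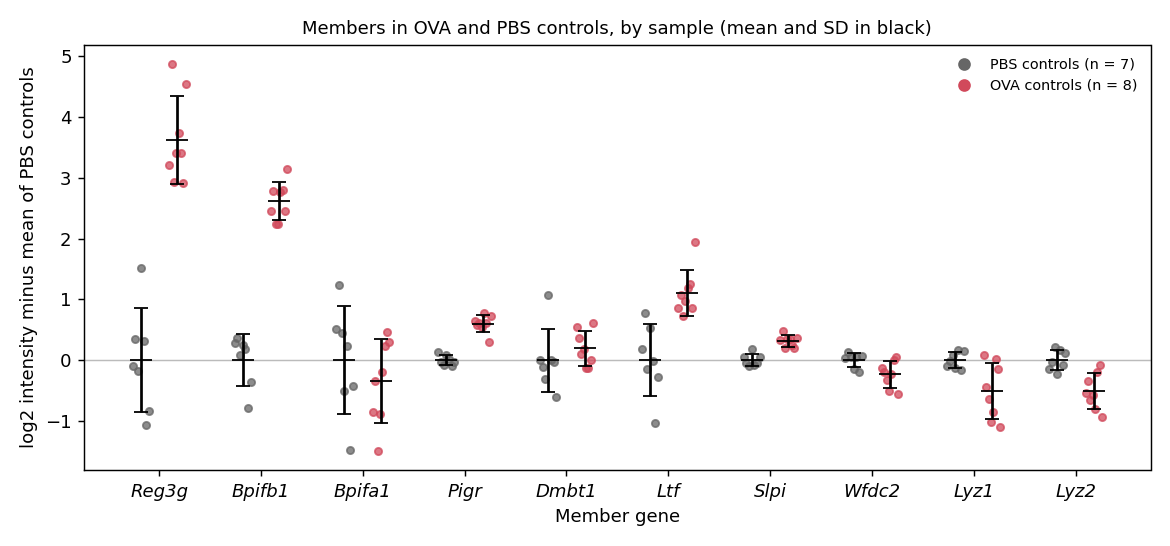
Log2 intensity of each member in each control sample, less the mean of the PBS controls (vertical axis), for 7 PBS controls (grey) and 8 OVA controls (red), with the mean and SD of each group in black. The OVA controls of Reg3g and Bpifb1 lie wholly above the PBS controls, while those of Bpifa1 and Dmbt1 overlap them and those of Wfdc2 overlap them in part.

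Pigr was called as the mean of its 2 probes (0.59 ± 0.11), and those probes disagreed. The bright probe (median log2 intensity 15.00) stood at 0.03 ± 0.12 in OVA controls and the dim one (median 7.64) at 1.15 ± 0.16. Over the 25 comparisons with controls the dim probe was called higher in 9 and lower in 0, and the bright probe higher in 0 and lower in 4. The dim probe rose in 8 of 12 PBS-challenged exposed groups, from 0.62 ± 0.19 in CuO NH3 40 to 1.63 ± 0.28 in CuO 10. At 40 µg/day the bright probe fell in CuO (-0.79 ± 0.20), CuO NH3 (-0.58 ± 0.14), CuO COOH + OVA (-0.61 ± 0.14) and CuO NH3 + OVA (-0.68 ± 0.15). In CuO 40 the dim probe rose in the same samples (1.09 ± 0.26). The calls of Pigr as a gene (OVA controls, CuO 2.5 and 10, CuO NH3 2.5 and 10) therefore follow the dim probe, and no direction of the Pigr transcript is given here. The call in OVA controls was lost without PBS replicate 2 or 6 or OVA replicate 3 or 5 (0.54 to 0.58), and each of the other 4 was lost without at least 1 sample (0.46 to 0.79 over those fits). The gene was called with slide and position in CuO COOH 2.5 (0.63) and CuO COOH 10 (0.74) as well, and not in CuO NH3 10 (0.55). As a gene Pigr lay above the controls without a call in CuO COOH 2.5 and 10, CuO PEG 10, CuO 10 + OVA and CuO NH3 2.5 + OVA, and at 40 µg/day in CuO, CuO COOH and CuO PEG. It lay below the OVA controls in CuO NH3 40 + OVA. At 40 µg/day the mean of the probes was at 0.15, 0.08, 0.02 and 0.46 in CuO, CuO COOH, CuO NH3 and CuO PEG, and with OVA at -0.36, -0.29, -0.50 and 0.24.

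**Figure D2:**
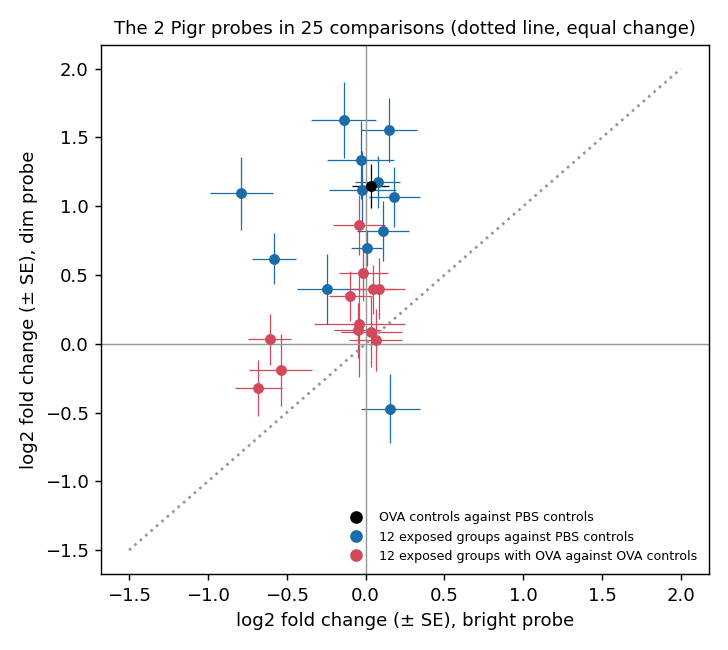
Log2 fold change (± SE) of the bright Pigr probe (horizontal axis) against the dim one (vertical axis) in 25 comparisons with controls. Most points lie above the dotted line of equal change, and the dim probe reaches 1.63 where the bright one stays between -0.79 and 0.18.

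In PBS-challenged mice Dmbt1 and Ltf rose at 40 µg/day of CuO, CuO COOH and CuO NH3, and neither was called with CuO PEG. The comparisons with PBS controls share those controls. Of the 10 members, 4 rose and 1 fell in CuO 40, where 14% of all genes were called. In CuO COOH 40, 2 rose and 0 fell (10.3% of all genes called). In CuO NH3 40, 3 rose and 3 fell (13.2%). In CuO PEG 40 none of the members was called (2.18%), whereas the model with slide and position called Bpifa1 and Slpi there.

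Dmbt1 had values from 5.57 to 7.25 (median 6.16) in the PBS controls. It reached 8.92, 9.76 and 9.30 in CuO 40. Values in CuO COOH 40 were 8.90, 8.35 and 9.25. All 6 samples were above every PBS control. In CuO NH3 40 the values were 8.99, 9.63 and 9.45, and in CuO PEG 40 they were 6.43, 7.04 and 6.40. The CuO NH3 samples were above every control and the CuO PEG samples within their range. The log2 fold changes were 4.41 ± 0.54 (CuO), 3.34 ± 0.52 (CuO COOH), 3.15 ± 0.38 (CuO NH3) and 1.18 ± 0.45 (CuO PEG). With slide and position as terms they were 3.15, 2.65, 3.17 and 0.44, so that the order of CuO and CuO NH3 depends on the model. The calls in the first 3 materials held whichever sample was left out.

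Dmbt1 was called at lower doses as well. At 10 µg/day it rose in CuO (3.25 ± 0.56), CuO COOH (2.41 ± 0.58) and CuO NH3 (2.01 ± 0.39). The samples of these groups lay between 7.46 and 8.48, above the highest PBS control. With slide and position as terms the values for CuO 10 and CuO COOH 10 were 1.85 and 1.78, both called. At 2.5 µg/day it was called in CuO (2.01 ± 0.48), with values of 6.94, 6.93 and 8.51, and in none of the coated materials. In the model with slide and position this value was 1.28 and not called. That call rests on the last sample, replicate 3, since without it the log2 fold change was 1.096 and not called. It also lost its call without CuO 2.5 replicate 1 (2.09) or PBS replicate 3 or 7 (1.83 and 2.00). At 10 µg/day the call of CuO COOH was lost without replicate 1 or 3 or PBS replicate 1 (1.93 to 2.88), and that of CuO NH3 without replicate 4 (1.46). Of all genes, 3.57%, 3.61%, 3.37% and 0.429% were called at 10 µg/day of CuO, CuO COOH, CuO NH3 and CuO PEG, and 0.91%, 0.346%, 0.937% and 0% at 2.5 µg/day.

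Ltf followed the same groups. The PBS controls lay between 9.24 and 11.05 (median 10.26). CuO 40 gave 12.36, 12.94 and 12.61, CuO COOH 40 gave 12.85, 12.56 and 12.81, and CuO NH3 40 gave 12.48, 13.18 and 13.16. All 9 samples lay above the controls, and CuO PEG 40, with 9.95, 10.77 and 10.31, lay within them. Log2 fold changes were 3.64 ± 0.70, 2.67 ± 0.68, 2.62 ± 0.50 and -0.34 ± 0.58 in this order. With slide and position as terms the value for CuO was 2.36. Ltf lost its call in CuO 40 without replicate 2 (4.25) and in CuO COOH 40 without replicate 1 (2.82) or PBS replicate 1 (2.33). At 10 µg/day Ltf was called in CuO NH3 (1.71 ± 0.50). That call was lost in 8 of the 11 fits that left out 1 sample, and without replicate 4 of the group the value was 0.46.

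Reg3g was called in 1 exposed group, CuO 40 (4.58 ± 1.33). Its samples there were at 12.83, 12.34 and 12.39, all above the highest PBS control at 10.42. Those of CuO COOH 40 were at 12.02, 11.69 and 11.64, also above all controls, yet this difference was not called (2.91 ± 1.28). In CuO NH3 40 the values were 7.89, 10.19 and 10.03 and in CuO PEG 40 they were 7.94, 8.90 and 8.59, so neither group left the range of the controls. In the model with slide and position Reg3g was called in CuO 40 (3.62 ± 0.76), CuO COOH 40 (2.88 ± 0.78) and CuO COOH 10 (3.48 ± 0.85). The call in CuO 40 was lost without replicate 2 (8.11) or PBS replicate 3 (4.41), so the size of this change is poorly fixed.

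Slpi rose in CuO 40 (1.18 ± 0.30) and CuO NH3 40 (1.00 ± 0.21), and at 10 µg/day in CuO (1.23 ± 0.31). Its values were 9.79 to 10.07 in the PBS controls, 10.48, 10.90 and 10.54 in CuO 40 and 10.64, 10.50 and 10.99 in CuO NH3 40. Both groups were above all controls. In CuO COOH 40 (0.76 ± 0.29) and CuO PEG 40 (0.78 ± 0.25) the samples were above the controls as well, but the changes were not called. The model with slide and position called Slpi in CuO PEG 40 (0.62 ± 0.13) and in CuO NH3 10 (0.62 ± 0.12). The 2 Slpi probes both rose in CuO 40 (1.17 ± 0.31 and 1.18 ± 0.32) and CuO NH3 40 (1.04 ± 0.22 and 0.97 ± 0.23), and in OVA controls one rose (0.64 ± 0.18) and the other stood at 0.02 ± 0.19. The probe that rose in OVA controls also rose in CuO 10 (1.53 ± 0.32) and CuO COOH 40 (1.02 ± 0.30). The other was not called in these groups (0.93 ± 0.34 and 0.49 ± 0.31). Slpi lost its call in CuO 40 without replicate 2 (1.15) or PBS replicate 3 (0.91), and in CuO 10 without replicate 2 (1.24) or 3 (1.14) or PBS replicate 3 (1.00). In CuO NH3 40 it kept its call whichever sample was left out.

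The lysozymes and Bpifa1 were lower at 40 µg/day of some materials. Lyz1 was between 15.23 and 15.57 in the PBS controls. It was at 14.56, 14.33 and 14.10 in CuO 40 and at 14.25, 14.23 and 14.19 in CuO NH3 40. Neither group overlapped the controls. The log2 fold changes were -1.49 ± 0.43 and -1.43 ± 0.30. CuO COOH 40, at 14.93, 15.14 and 14.85, was below the controls too but not called (-0.82 ± 0.41), and CuO PEG 40 overlapped them (-0.07 ± 0.36). For CuO COOH 40 this position rests on the adjustment. Without it the Lyz1 mean was 15.57 there and 15.33 in the PBS controls. The call in CuO 40 was lost without replicate 2 (-1.65) or PBS replicate 3 (-1.39), and that in CuO NH3 40 was not lost without any one sample. Lyz2 also fell in CuO NH3 40 (-0.96 ± 0.25), from a control range of 13.78 to 14.22 to values of 13.06, 13.07 and 13.54. It lost its call without replicate 1 or PBS replicate 5 (-0.75 in both), which share an array. In CuO COOH 40 its samples, at 13.18, 13.52 and 13.28, also lay below every control (-0.87 ± 0.34), and it was called with slide and position (-0.68 ± 0.19) but not with the array. In CuO 40 Lyz2 stood at -0.54 ± 0.35 and changed sign to 0.70 without replicate 2, and in CuO PEG 40 at -0.27 ± 0.29.

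Bpifa1 fell in CuO NH3 40 (-2.87 ± 0.82), with values of 9.11, 9.13 and 8.96 against 10.07 to 12.79 in the PBS controls. Without replicate 1 or PBS replicate 5, which share an array, it was at -3.05 and not called. In CuO PEG 40 it was at -2.75 ± 0.97, with 8.73, 10.22 and 10.20, and not called, whereas the model with slide and position called it at -1.84. In CuO 40 and CuO COOH 40 Bpifa1 overlapped the controls, with 0.15 ± 1.17 (-0.88 with slide and position) and -1.29 ± 1.13. Bpifb1 was not called in any PBS-challenged group, with 1.24 ± 0.75, -0.09 ± 0.73, -0.38 ± 0.53 and -0.59 ± 0.63 in the 4 groups at 40 µg/day. The first of these was 0.59 with slide and position, and there Bpifb1 was called in CuO COOH 10 (1.74 ± 0.47) and CuO NH3 10 (1.01 ± 0.38). Wfdc2 was called in none of the comparisons with controls, and its changes at 40 µg/day lay between -0.27 and 0.14 in PBS-challenged mice.

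At the lower doses of the PBS-challenged groups, several members lay wholly above the PBS controls without a call, which is a description and not a test. In CuO COOH 10 these were Reg3g (2.93 ± 1.42, with 12.42, 12.92 and 11.79), Ltf (2.19 ± 0.75, with 12.49, 12.35 and 12.04) and Bpifb1 (1.46 ± 0.81). Bpifb1 did so in CuO COOH 2.5 (1.18 ± 0.81) and CuO NH3 10 (0.95 ± 0.54) too, and Slpi in CuO 2.5, CuO NH3 2.5 and CuO NH3 10 (0.51 to 0.59). The 2 Slpi probes differed, at 1.11 ± 0.27 and -0.09 ± 0.29 in CuO 2.5. They were at 1.01 ± 0.25 and 0.17 ± 0.27 in CuO NH3 2.5, and at 0.69 ± 0.22 and 0.44 ± 0.23 in CuO NH3 10. Ltf in CuO COOH 10 was called with slide and position (2.01 ± 0.49). In CuO NH3 2.5 Ltf (0.64 ± 0.58) and Lyz1 (0.24 ± 0.35) lay above the controls as well. Without the adjustment the Lyz1 mean there was 15.19, below that of the PBS controls at 15.33. In CuO PEG 10, replicate 1 stood apart in 3 members at once. It was at 8.92 for Dmbt1, 12.47 for Ltf and 11.10 for Reg3g, where the other 3 samples reached at most 6.10, 10.33 and 8.95.

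**Figure D3:**
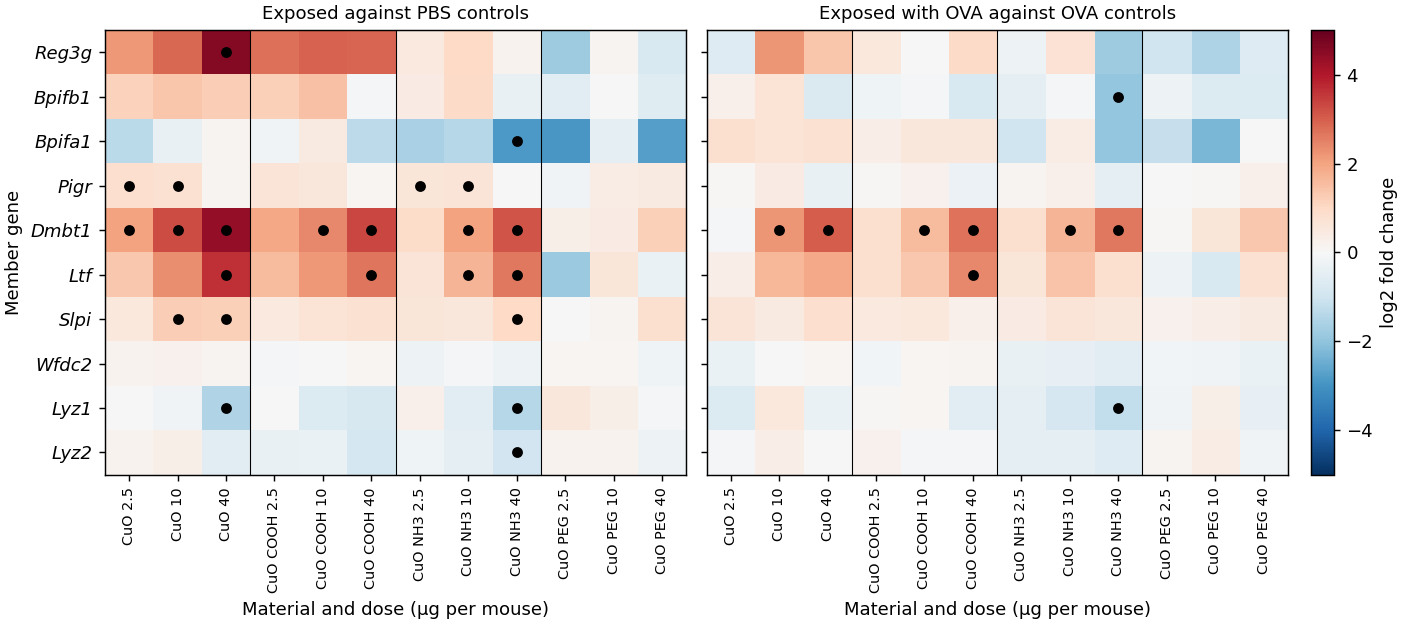
Log2 fold change of each member (rows) in each of 12 PBS-challenged exposed groups against PBS controls (left) and 12 OVA-challenged exposed groups against OVA controls (right). Red is higher and blue lower, and black dots mark calls. Dmbt1 carries 7 calls on the left and 6 on the right, none of them in CuO PEG.

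In OVA-challenged mice Dmbt1 rose with the same 3 materials against OVA controls, which all these comparisons share. At 40 µg/day 1 of 10 members rose in CuO + OVA, where 1.58% of all genes were called. In CuO COOH + OVA 2 rose (3.8%), in CuO NH3 + OVA 1 rose and 2 fell (3.97%), and in CuO PEG + OVA none was called (0.639%). Dmbt1 was between 6.05 and 6.79 in the OVA controls. It was at 8.36, 8.52 and 8.64 in CuO 40 + OVA, at 8.89, 8.76 and 8.84 in CuO COOH 40 + OVA and at 8.70, 9.08 and 9.56 in CuO NH3 40 + OVA. All 9 samples exceeded the OVA controls. Log2 fold changes were 3.01 ± 0.54, 2.73 ± 0.38 and 2.65 ± 0.41, and the first was 2.13 with slide and position as terms. The call in CuO 40 + OVA was lost without replicate 1 (2.70) or 2 (3.03), and the calls of the other 2 groups were kept whichever sample was left out.

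The CuO PEG 40 + OVA samples were at 7.43, 7.03 and 8.33 for Dmbt1, also above all OVA controls, with 1.34 ± 0.45 and no call. At 10 µg/day Dmbt1 rose in CuO + OVA (2.22 ± 0.45), CuO COOH + OVA (1.59 ± 0.37) and CuO NH3 + OVA (1.69 ± 0.42). In CuO 10 + OVA 1 sample, at 6.46, lay among the OVA controls, and the other 2 were at 7.94 and 8.31. The call in CuO 10 + OVA was lost without any 1 of its 3 replicates or OVA replicate 4 (1.56 to 2.39). That in CuO COOH 10 + OVA was lost without its replicate 1 or 3 or OVA replicate 2, 3 or 6 (1.31 to 2.12). Replicate 1 of that group and OVA replicate 2 share an array. The call in CuO NH3 10 + OVA was lost without its replicate 3 or OVA replicate 7 (2.48), which also share an array. In the model with slide and position none of these 3 was called (1.19, 1.53 and 1.31). At 10 µg/day 0.267%, 0.639%, 2.5% and 0% of all genes were called with OVA for CuO, CuO COOH, CuO NH3 and CuO PEG. At 2.5 µg/day the shares were 0%, 0.035%, 0.993% and 0.00438%, and no member was called. In CuO 2.5 + OVA, 2 of the 3 samples were alone on their array, so that fit rests on 1 sample. Among the PBS-challenged groups, replicate 2 of CuO COOH 2.5 was alone on its array, so the fit of that group rests on its other 2 samples.

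Ltf rose in CuO COOH 40 + OVA (2.40 ± 0.49), with values of 13.10, 12.95 and 13.57 all above the highest OVA control at 12.21. It lost this call without replicate 1 or OVA replicate 1 (3.07 in both), which share an array. CuO 40 + OVA, at 12.65, 12.27 and 12.76, and CuO NH3 40 + OVA, at 12.38, 12.98 and 13.41, were above the controls as well and not called (1.89 ± 0.70, or 1.17 with slide and position, and 0.82 ± 0.54). The model with slide and position called Ltf in CuO NH3 40 + OVA (1.54 ± 0.41). Reg3g was called in no OVA-challenged exposed group in either model and spread widely, from 8.11 in CuO PEG 40 + OVA to 14.20 in CuO 10 + OVA. In CuO PEG 40 + OVA its 3 samples, at 10.62, 8.11 and 11.69, lay below every OVA control, with -0.65 ± 1.103 and with slide and position -2.39 ± 0.76. In the other 3 groups at 40 µg/day it overlapped the OVA controls, with 1.40 ± 1.32 in CuO (0.64 with slide and position), 0.96 ± 0.93 in CuO COOH (0.31) and -1.79 ± 1.01 in CuO NH3 (-0.80).

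Bpifb1, higher in OVA than in PBS controls, lay below the OVA controls in all 4 groups at 40 µg/day. CuO NH3 40 + OVA gave 11.10, 11.94 and 12.22, below every OVA control, and fell (-1.94 ± 0.57). The call was lost in 8 of the 11 fits that left out 1 sample of these groups (-2.19 to -1.57). The other 3 groups were not called. Their values were 12.49, 11.60 and 12.65 in CuO, 12.19, 11.68 and 13.12 in CuO COOH and 12.37, 11.27 and 12.43 in CuO PEG, with log2 fold changes of -0.73 ± 0.75, -0.76 ± 0.53 and -0.67 ± 0.63. The model with slide and position called all 4 groups, from -1.78 to -1.21. Lyz1 fell in CuO NH3 40 + OVA (-1.22 ± 0.33), with 13.97, 13.90 and 13.67 against 14.30 to 15.48 in the OVA controls. The call was lost without replicate 2 (-0.87) or 3 (-1.18) or OVA replicate 6 (-1.02) or 8 (-1.18). Lyz1 overlapped the OVA controls in the other 3 materials. Slpi was above the OVA controls in all 4 groups at 40 µg/day, with 0.25 ± 0.21 to 0.84 ± 0.30 and no call. At lower doses it was above them in CuO COOH 2.5 and 10, CuO NH3 2.5 and 10 and CuO PEG 10 with OVA (0.33 to 0.63), also with no call. Slpi was called with slide and position in CuO NH3 40 + OVA (0.59 ± 0.13) and CuO NH3 10 + OVA (0.63 ± 0.13). Bpifb1 lay below the OVA controls in CuO NH3 10 + OVA too (-0.10 ± 0.58, or -0.85 ± 0.41 with slide and position). Bpifa1, Lyz2 and Wfdc2 overlapped the OVA controls at 40 µg/day of every material, with -1.93 to 0.77, -0.65 to 0.03 and -0.53 to 0.15. For Bpifa1 the values with slide and position were 0.17 (CuO), 0.13 (CuO COOH), -0.18 (CuO NH3) and -1.21 (CuO PEG).

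The exposure effect at 40 µg/day was not called as different between OVA- and PBS-challenged mice for any member, as a gene, with any material. By probe, the dim Pigr probe was called for CuO (-1.285 ± 0.292, with adjustment over all probes). The bright Pigr probe was at 0.248 ± 0.219 and not called. Among all genes the difference between challenges was called in 1.11% for CuO, 1.05% for CuO COOH, 1.59% for CuO NH3 and 0% for CuO PEG. Reg3g with CuO was at -3.19 ± 1.47. Bpifa1 with CuO PEG was at 2.71 ± 1.38, or 0.63 ± 0.89 with slide and position. With slide and position as terms 4 members were called for CuO. The effect under OVA was lower than under PBS for Reg3g (-2.98 ± 1.00) and Bpifb1 (-1.89 ± 0.55) and higher for Lyz1 (1.02 ± 0.27) and Lyz2 (0.89 ± 0.24).

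**Figure D4:**
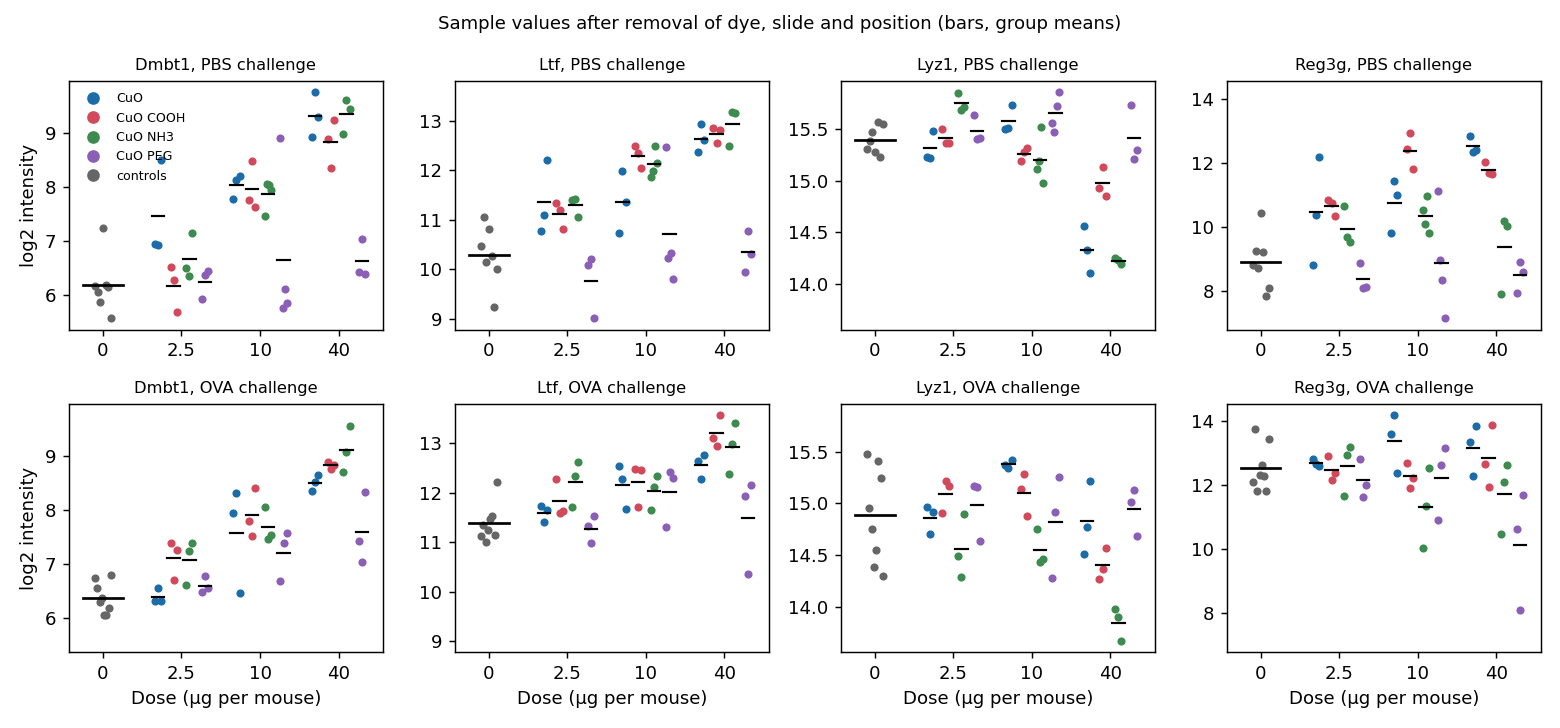
Log2 intensity of each sample for Dmbt1, Ltf, Lyz1 and Reg3g (columns) by dose in µg/day, in PBS-challenged (top) and OVA-challenged (bottom) mice, with controls in grey at dose 0 and bars for group means. Dmbt1 is above all controls at 40 µg/day of CuO, CuO COOH and CuO NH3 in both rows, and Reg3g starts higher in the OVA controls than in the PBS controls.

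Coatings were compared with core CuO at equal dose in a model with dye, slide and position, since CuO and CuO COOH lay on slides 1 to 3 and CuO NH3 and CuO PEG on slides 4 to 6. Of 180 pairs of member and comparison (18 comparisons), 6 were called. CuO PEG 40 had 4 of them, where 4.38% of all genes were called. Reg3g (-4.04 ± 0.98), Dmbt1 (-2.71 ± 0.58) and Ltf (-2.29 ± 0.56) were lower than in CuO 40 and Lyz1 was higher (1.08 ± 0.27), each without overlap of the adjusted samples given above. For Lyz1 the difference rests on the adjustment. Its group means were 15.41 in CuO PEG 40 and 14.33 in CuO 40 with dye, slide and position removed, and 14.86 and 14.93 without. These 4 calls were kept whichever sample was left out. With dye and array as terms Dmbt1 (-3.22) and Ltf (-3.98) kept their calls and Reg3g (-5.34) and Lyz1 (1.42) lost theirs. Materials and slides cannot be fully told apart here. All 3 coated materials also hold less copper than core CuO at the same mass, CuO PEG the least.

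CuO COOH 40 and CuO NH3 40 had no member called against CuO 40, and 0.109% and 0.123% of all genes. For Dmbt1 the 95% interval of the log2 difference was -1.47 to 0.47 for CuO COOH and -1.16 to 1.21 for CuO NH3, and for Ltf it was -0.83 to 1.03 and -0.84 to 1.44. Reg3g was lower in CuO NH3 40 than in CuO 40 in every sample, with an interval of -5.15 to -1.15 that was not adjusted for the number of genes, and it was not called. With OVA, Lyz2 was lower in CuO NH3 40 + OVA than in CuO 40 + OVA (-0.98 ± 0.24), where 0.372% of all genes were called. It lost this call without CuO 40 + OVA replicate 1 (-0.92) or 3 (-0.84) or CuO NH3 40 + OVA replicate 3 (-0.83), and with dye and array as terms (-0.68). CuO COOH 40 + OVA (0.319% of all genes) and CuO PEG 40 + OVA (0.394%) had no member called against CuO 40 + OVA. Without adjustment for the number of genes, the 95% interval for CuO COOH was -1.143 to -0.285 for Lyz2. For CuO PEG it was -5.17 to -0.90 for Reg3g and 0.02 to 0.53 for Pigr. The intervals of the other members in these comparisons held both signs. For Dmbt1 the CuO PEG difference with OVA was -0.91 ± 0.63.

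At lower doses Pigr was the 1 member called, lower in CuO PEG 2.5 than in CuO 2.5 (-0.88 ± 0.13, 1.86% of all genes called), which carries the disagreement of its probes. The other comparisons at lower doses called 0.188% (CuO COOH 2.5), 0.0175% (CuO COOH 10), 0% (CuO NH3 2.5), 0.162% (CuO NH3 10) and 1.06% (CuO PEG 10) of all genes in PBS-challenged mice. With OVA they called 0.00438% for CuO COOH 10 and CuO PEG 2.5 and 0% for the other 4.

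**Figure D5:**
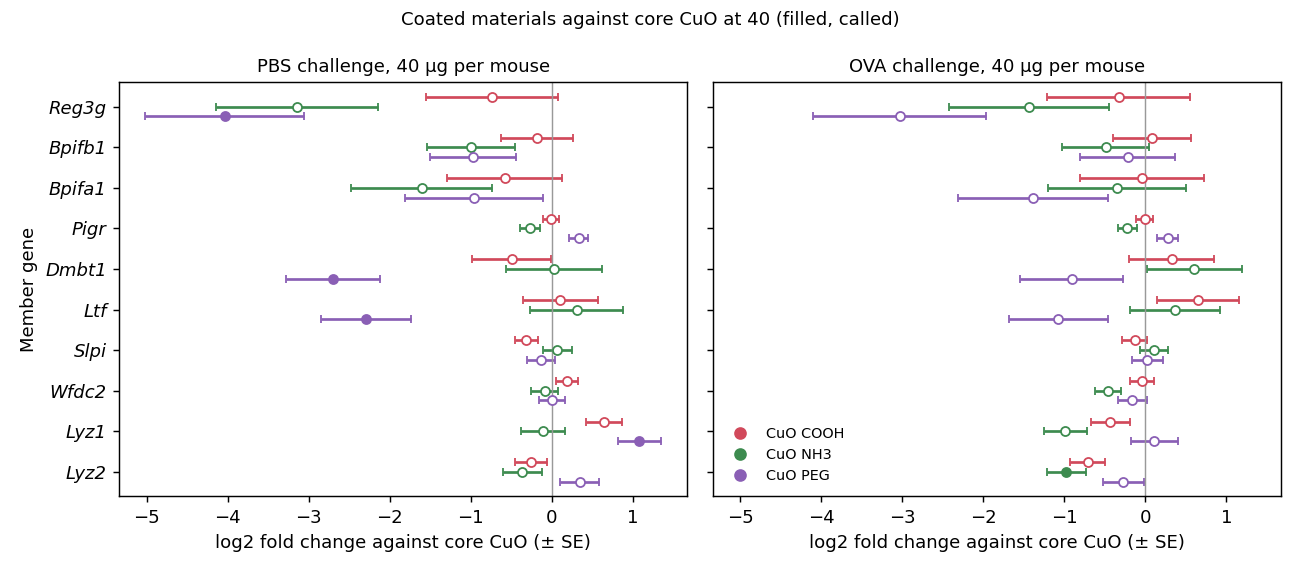
Log2 fold change (± SE) of each member in the coated materials against core CuO at 40 µg/day, in PBS-challenged (left) and OVA-challenged (right) mice. Filled points are called: Reg3g, Dmbt1, Ltf and Lyz1 for CuO PEG on the left and Lyz2 for CuO NH3 on the right.

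Members varied together in pairs over the 26 group means, which come from shared slides and so are not independent. Lyz1 and Lyz2 had a Pearson r of 0.877, Dmbt1 and Ltf 0.843 and Reg3g and Bpifb1 0.804, while Ltf and Lyz1 went opposite ways (-0.726). Within the 13 PBS-challenged and the 13 OVA-challenged groups, r was 0.909 and 0.887 for Dmbt1 and Ltf and 0.71 and 0.474 for Reg3g and Bpifb1. For 7 of the members, the 3 genes most like each are given, out of 15427 other genes detected in at least 50% of samples. For Bpifb1 they were Cldn22 (0.965) and the airway mucins Muc5b (0.952) and Muc5ac (0.945). For Reg3g they were Muc5b (0.885), Bdh1 (0.871) and Ptcd2 (0.867). For Dmbt1 they were Hacd1 (0.939), Gk and Dnajc5b (both 0.938), and for Ltf they were Steap1 (0.936), Ubl4a (0.934) and Psmd9 (0.93). Those of Slpi were the chemokine Ccl2 (0.932), Il1b (0.927) and Gm8884 (0.92). Those of Lyz2 were the club cell secretoglobin Scgb3a2 (0.912), Tmem163 (0.909) and Prr18 (0.906), and those of Lyz1 were Decr2 (0.954), Igfbp7 (0.951) and Wdr34 (0.944).

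Relatives of the members by family were described from a list of 30 measured genes. In CuO 40, CuO COOH 40, CuO NH3 40 and CuO PEG 40, 5, 2, 6 and 1 of them rose and 2, 3, 3 and 1 fell. Beside this list and those below, 14%, 10.3%, 13.2% and 2.18% of all genes were called in these groups. In OVA controls the share was 5.22%. Wfdc17, a whey acidic protein relative of Slpi made by activated macrophages, rose in all 4 (3.81 ± 0.32, 3.12 ± 0.31, 3.91 ± 0.23 and 2.16 ± 0.27) and in the OVA controls (2.69 ± 0.19). Wfdc21 rose in the first 3 (1.81 ± 0.43, 2.17 ± 0.42 and 1.97 ± 0.31). Bpifb5, of the family of Bpifb1, fell in all 8 groups at 40 µg/day, among them CuO 40 (-1.57 ± 0.21), CuO 40 + OVA (-1.84 ± 0.21) and CuO PEG 40 + OVA (-0.83 ± 0.17). In the OVA controls 3 relatives rose and 1 fell.

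Of 30 other airway defence proteins measured, 7, 6, 8 and 2 rose and 1, 2, 3 and 0 fell in the 4 PBS-challenged groups at 40 µg/day. Lcn2, which binds the iron carriers of bacteria, rose in all 4 (4.00 ± 0.54, 3.30 ± 0.52, 2.49 ± 0.38 and 2.65 ± 0.45, in the order CuO, CuO COOH, CuO NH3 and CuO PEG). Ccl20, an antimicrobial chemokine, rose in CuO 40 (2.90 ± 0.39), CuO COOH 40 (1.33 ± 0.38) and CuO NH3 40 (1.90 ± 0.28). Sftpd, surfactant protein D, which Dmbt1 binds, rose in all 4 groups (1.67 ± 0.21, 1.65 ± 0.20, 1.21 ± 0.15 and 1.38 ± 0.17). In OVA controls 8 rose and 0 fell, with Itln1 at 3.62 ± 0.36, Tff2 at 2.37 ± 0.52 and Muc5b at 2.31 ± 0.42.

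Of 19 genes of the cytokines that induce such proteins, 6, 4, 6 and 2 rose and 0 fell in these 4 groups. Il6 rose in all 4 (2.53 ± 0.39, 1.89 ± 0.37, 2.42 ± 0.27 and 1.59 ± 0.32) and Il1b in CuO 40 (2.04 ± 0.50) and CuO NH3 40 (1.43 ± 0.35). In OVA controls 3 rose, Il6 (1.49 ± 0.23), Il4 (1.05 ± 0.26) and Socs3 (0.74 ± 0.14). Of 6 genes of IgA supply, 2, 1, 2 and 0 fell at 40 µg/day, among them Jchain, the joining chain of IgA, in CuO 40 (-1.66 ± 0.45) and CuO NH3 40 (-1.27 ± 0.31).

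Markers of other cells were counted in the same groups. At 40 µg/day 14% (CuO), 10.3% (CuO COOH), 13.2% (CuO NH3) and 2.18% (CuO PEG) of all genes were called. In whole lung, fewer cells of a type and less RNA per cell cannot be told apart. Of 11 neutrophil markers, 5 rose in CuO 40, 1 in CuO COOH 40, 6 in CuO NH3 40 and 0 in CuO PEG 40, and 1, Csf3r, fell in CuO 40 (-0.91 ± 0.21) and in CuO NH3 40 (-0.89 ± 0.15). Mmp8 rose in the first 3 (3.44 ± 0.42, 2.19 ± 0.41 and 3.08 ± 0.30), and S100a8 in CuO 40 (2.39 ± 0.70) and CuO NH3 40 (1.79 ± 0.49). The mean of the list was 9.18 to 9.49 in the PBS controls, 9.86 to 10.16 in CuO 40, 9.59 to 9.78 in CuO COOH 40, 10.15 to 10.56 in CuO NH3 40 and 9.52 to 9.67 in CuO PEG 40. The part of neutrophils in the Ltf and Slpi results was not tested.

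Of 7 club cell markers, 3, 4, 6 and 0 fell and 0 rose in the same groups. Cyp2f2, a club cell cytochrome, fell in the first 3 (-2.67 ± 0.44, -2.26 ± 0.42 and -2.83 ± 0.31), and Scgb3a2 in CuO COOH 40 (-2.75 ± 0.69) and CuO NH3 40 (-3.42 ± 0.51). The mean of the list was 14.68 to 15.26 in the PBS controls. It was 13.9 to 14.61 in CuO 40, 13.72 to 14.43 in CuO COOH 40, 13.19 to 13.45 in CuO NH3 40 and 14.46 to 14.68 in CuO PEG 40. Bpifa1, Lyz1 and Lyz2 fell in CuO NH3 40. Lyz1 also fell in CuO 40, while Bpifa1 overlapped the controls in CuO 40 and CuO COOH 40. Of 7 alveolar type 2 markers, 1, 1, 2 and 0 fell. Of 12 monocyte and macrophage markers, 4, 5, 4 and 3 rose and 1 fell in each, with Cd14 higher in all 4 (3.28 ± 0.31, 2.39 ± 0.30, 2.71 ± 0.22 and 2.19 ± 0.26). In OVA controls 7 of these 12 rose, 2 of 7 club markers fell and 1 of 11 neutrophil markers rose. Of 6 ciliated cell markers, 3, 1, 0 and 0 rose and 0, 0, 1 and 0 fell. Their part in the changes of the members was not tested.

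Of 7 goblet cell markers 6 rose in OVA controls, with Clca1 at 6.87 ± 1.09 and Muc5ac at 3.02 ± 0.48. In CuO NH3 40 + OVA 6 of them fell, Clca1 by 4.65 and Muc5ac by 3.06 on the log2 scale. The mean of the list was 7.26 to 8.15 in the PBS controls, 10.90 to 11.71 in the OVA controls and 8.90 to 9.31 in CuO NH3 40 + OVA. It lay below the OVA controls in the other 3 groups too, at 9.85 to 10.44 in CuO 40 + OVA, 9.29 to 9.98 in CuO COOH 40 + OVA and 9.19 to 10.27 in CuO PEG 40 + OVA, where 0, 2 and 0 of the 7 markers fell. Bpifb1 was below the OVA controls in the same 4 groups. At 40 µg/day with OVA, 1, 1, 7 and 1 of 11 neutrophil markers rose and 0, 1, 3 and 0 of 7 club markers fell, in the order CuO, CuO COOH, CuO NH3 and CuO PEG. Of all genes 1.58%, 3.8%, 3.97% and 0.639% were called there. Whether these shifts account for the changes of Bpifb1 or Lyz1 was not tested.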

How the data were processed

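Two-colour Agilent mouse arrays held a different sample in each dye, with no common reference. The authors deposited the scanner output of each sample, from which the median foreground and background intensity of its channel were used, and a table of log2 values, which per the paper's methods were quantile normalized, freed of batch effects with ComBat and averaged per gene. That deposited log2 table ranked probes in each column as the sample's own scanner channel did (lowest rank correlation 1, column medians 6.482 to 6.507), so it was not batch corrected per gene, and it was used as an alternative. The version of the authors' limma is not given in the sources used here.

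Here median intensities were taken as log2, quantile normalized over 89 samples and averaged over probes of a gene. Of 56605 probes, 32994 had a gene, which gave 22911 genes, of which 22851 had a value in every sample. limma 3.58.1 in R 4.3.3 fitted 26 groups with dye and array as terms for contrasts with controls and for the difference between challenges (17 residual degrees of freedom), and with dye, slide and position for coated against core materials (50), with Benjamini-Hochberg adjustment over all genes. The 46 arrays lay on 6 slides, and 43 held 2 samples. The median spot was 2.9 (Cy3) and 1.79 (Cy5) times its background, no spot was saturated, and the number of arrays limits the precision. The highest correlation between samples was 0.9976. The fit was tested on simulated data.

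The members and gene lists were chosen with earlier results of these data known. Members are all named in the OVA contrast and at 40 µg/day, and at lower doses where called or where samples do not overlap the controls. From each list at most 4 genes were to be named, those called with the largest change, and for marker lists also the 2 of highest level. Wfdc17, Wfdc21, Bpifb5, Sftpd, Ccl20 and Cd14 are in addition given across groups. Alternatives were normexp background correction (offset 50), loess within arrays, dim probes left out, the deposited values, other batch terms, controls of the same slides, a replicate block, each sample left out in turn and, chosen after seeing the data, the brightest probe of each gene.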

Additional observations from a re-analysis of the deposited data

Results flagged for a closer look

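Within groups of 4 to 10 samples, 40 combinations of member and group were examined for a sample far from the others, and 5 were found, where chance gives about 1 in 20. Dmbt1 in CuO PEG 10 replicate 1 was at 8.92 and the nearest sample at 6.10. Ltf and Reg3g were also highest in that sample of the group. Dmbt1 in PBS replicate 4 was at 7.25, with the nearest control at 6.19. Ltf in OVA replicate 8 was at 12.21 and the nearest at 11.54. Pigr in OVA replicate 7 was the lowest, at 11.12, with the nearest at 11.37. Slpi in CuO NH3 10 replicate 3 was the lowest, at 10.29, with the nearest at 10.57.

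With CuO NH3 10, the Bpifb1 samples lay on opposite sides of their controls under the 2 challenges, though only just so under OVA. The highest CuO NH3 10 + OVA sample was at 13.15 and the lowest OVA control at 13.16. All PBS-challenged samples lay above the PBS controls (log2 fold change 0.95, or 1.01 with slide and position as terms, where it was called) and all OVA-challenged samples below the OVA controls (-0.10, or -0.85 in that model, neither called). The difference between the 2 was not tested.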

How the results depend on the processing

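Against 3, 23, 9, 0 and 6 calls of members (OVA controls, PBS-challenged exposures, OVA-challenged exposures, difference between challenges, coated against core), dim probes left out and the deposited values kept all 41, normexp kept 35, loess 36, the array as a random block 37, the replicate block 34 and the brightest probe 35. The settings that kept all 41 test little here. Every member probe passed the filter for dim probes, and the deposited values rank probes as the scanner channels do. The model with slide and position kept 30 of 35, controls of the same slides 26 of 32, and dye and array, for coated against core, 3 of 6. With array as a random block the counts for the last 4 were 38, 19, 3 and 21. The model with slide and position gave 4, 32, 12 and 4 calls for the first 4. Leaving out 1 sample gave 1 to 4, 15 to 24 (15 without PBS replicate 3), 7 to 9, 0 to 0 and 5 to 8 calls, and 15 of the 41 calls held in every such fit. Lyz2 in CuO 40 ranged from -0.77 to 0.70, the latter without CuO 40 replicate 2.

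With a replicate block and dye, and no array or slide term, the counts were 41, 26, 4 and 23. Samples shared only a number: over 984 same-numbered pairs the median correlation of deviations was 0.079, and 444 were above 0.1. Under this block Lyz1 in CuO PEG 40 against CuO 40 was at -0.069, Lyz2 in CuO PEG 40 + OVA against OVA at 0.61 and Pigr in that comparison at -0.10. With the brightest probe alone, chosen after seeing the data, Pigr was at -0.14 in CuO 10, -0.79 in CuO 40 and -0.58 in CuO NH3 40. The replicate block fit leaves slide effects in the values. Without removal of dye, slide and position the Lyz1 means were 14.86 in CuO PEG 40 and 14.93 in CuO 40. The cause of the changes of sign was not tested, and the Pigr probes disagree. Dmbt1 lies near background in the controls, which limits its fold changes.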
